A study of Mus musculus with 8 samples.

Results

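The genes described here are 9 components and targets of Hedgehog signaling, the ligands Shh and Ihh, the receptor Ptch1, the signal transducer Smo, the transcription factors Gli1, Gli2 and Gli3, the negative regulator Sufu and the ligand-binding protein Hhip. They were chosen by name, as the rows of the deposited expression table that carry these symbols, and all 9 were found among its 24341 genes. Each gene was measured by total RNA-seq in 8 mouse pancreas buds at E11.0 (about 40 somites), 5 WT and 3 Lats1/2PanKO, and the question was whether the pathway differs between the genotypes. Lats1/2PanKO buds carry Pdx1Cre early together with Lats1 f/f and Lats2 f/f, so that a Cre driven from Pdx1, a gene of pancreatic epithelium, deletes both Hippo kinase genes, and the labels give strain CD1 for both genotypes. Each library is 1 bud with its mesenchyme pulled away by forceps, and the methods state in general that mutants were compared with WT or heterozygous littermates, so the Cre and flox alleles carried by the WT buds are not given.

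In Hedgehog signaling a secreted ligand binds Ptch1 and relieves its block on Smo, which then turns Gli2 and Gli3 from repressors to activators. Ptch1, Hhip and Gli1 are themselves transcribed in responding cells and serve as readouts of the signal, while Sufu holds Gli proteins back. In the embryonic gut the endoderm makes Shh and Ihh and the surrounding mesenchyme responds. Shh is kept out of the early pancreatic epithelium, where its presence diverts the tissue toward an intestinal fate.

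The data show a pathway with very little ligand RNA and clear levels of receptor, transducer and Gli RNA. The ligands stayed near 0 in both genotypes, whereas Ptch1, Gli1, Gli2 and Gli3 were each lower in the Lats1/2PanKO mean, by between 23.9% for Gli3 and 32.4% for Gli1. Smo and Sufu differed by less, 5.32% and 8.01%. None of these differences passed a test adjusted over all genes, and most markers of mesenchyme, the tissue in which these genes are known to act, were lower as well.

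Values are given in FPKM, which scales the fragments of a gene to its transcript length and to the mapped total, so that levels of genes of different length can be compared. The 13777 genes whose mean reached 0.5 FPKM were tested with limma on log2(FPKM + 1), where the added 1 makes fold changes of low genes smaller than those of the FPKM. Of the 9 Hedgehog genes, 6 reached that level, whereas Shh, Ihh and Hhip (mean 0.495 FPKM) did not. The file holds no read counts. Low values of genes with 1 exon and 1 transcript placed 1 fragment in 1000 bases of transcript at 0.0999 to 0.107 FPKM in 7 libraries and at 0.134 FPKM in WT bud 5, the shallowest. Genes above 0 numbered 16117 to 16982. Lats1 was lower in the 3 Lats1/2PanKO buds (10.1 to 13.8 FPKM) than in the WT buds (14.1 to 16.6 FPKM), and Lats2 ranges overlapped (11.1 to 13.4 and 11.6 to 14.7 FPKM), both values over whole genes that do not resolve the deleted exons.

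Shh, the ligand that patterns the gut tube, was listed at 0 FPKM in WT buds 1 and 2 and at 0.119, 0.185 and 0.342 FPKM in WT buds 3, 4 and 5. In Lats1/2PanKO buds it stood at 0.0397, 0 and 0.0377 FPKM. For the 2847-base GENCODE transcript these values came to about 3, 5 and 7 fragments in the WT buds above 0 and to 1, 0 and 1 fragments in the mutants, so the genotypes overlapped at a depth of a few fragments. The mean of log2(FPKM + 1) differed by -0.13 (exact two-sided permutation test over all 56 assignments of buds, p = 0.321). The row for Shh covers chr5:28456840-28719209 (GRCm38), a locus it shares in the table with 9530036O11Rik, while GENCODE places the gene itself at chr5:28456815-28467256 on the minus strand. 9530036O11Rik was listed above 0 only in WT bud 4 (0.0336 FPKM) and Lats1/2PanKO bud 3 (0.103 FPKM).

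Ihh, the second ligand of gut endoderm (chr1:74945318-74951651), measured 0.167, 0.0860, 0, 0.773 and 0.107 FPKM in WT buds 1 to 5 and 0.131, 0 and 0.496 FPKM in the mutants. One bud of each genotype stood above the others, WT bud 4 with about 19 fragments and Lats1/2PanKO bud 3 with about 12, on the 2468-base transcript. The genotypes overlapped and their means nearly coincided (log2 difference -0.01, exact permutation p = 1). Neither ligand was detectably higher in Lats1/2PanKO buds, at a depth where both rest on few fragments.

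Hhip, which binds Hedgehog ligands at the cell surface and is a target of the pathway (chr8:79965851-80058008), measured 0.792, 0.243, 0.368, 0.981 and 0.329 FPKM in WT buds and 0.525, 0.187 and 0.531 FPKM in mutant buds. WT values spread 4.04-fold, from bud 2 to bud 4, and every mutant value but the lowest lay inside that range. The log2 difference of the means was -0.11 (exact permutation p = 0.589).

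Ptch1, the receptor and the target most often used as a readout (chr13:63511533-63565520, minus strand), stood at 23.6, 18.2, 24.0, 27.4 and 23.8 FPKM in WT buds and at 19.1, 15.7 and 16.7 FPKM in Lats1/2PanKO buds. Of the 5 WT buds, 4 were above every mutant, and WT bud 2 fell between the mutant values. The mean was 23.4 ± 3.29 FPKM in WT (SD, n = 5) and 17.2 ± 1.74 FPKM in mutants (SD, n = 3). The log2 fold change was -0.42 (SE 0.12, 95% interval -0.69 to -0.14), with an unadjusted p of 0.00716 and an adjusted p of 0.275 by limma. An exact permutation test of the same difference gave p = 0.0357, which rose to between 0.0536 and 0.0952 under median-ratio scaling and without any 1 of WT buds 1, 3, 4 and 5 or mutant buds 2 and 3. No direction changed.

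Smo, the transmembrane protein that passes the signal inward (chr6:29735497-29761366), was the most abundant member at 58.5, 59.1, 63.2, 62.8 and 50.8 FPKM in WT buds and 53.7, 64.1 and 49.4 FPKM in mutants. The highest value of all came from mutant bud 2 and the lowest from mutant bud 3. The log2 fold change of -0.08 had a 95% interval from -0.31 to 0.14 (adjusted p = 0.810), so a decrease of the size seen for Gli1 or Gli2 lay outside it. It was below 0.01 in size without mutant bud 3, -0.18 without mutant bud 2 and -0.13 without WT bud 5.

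Sufu, which binds Gli proteins and restrains them (chr19:46396896-46488804), measured 15.3, 12.1, 16.3, 15.4 and 15.0 FPKM in WT and 13.4, 14.2 and 13.3 FPKM in mutants. All 3 mutant values lay between WT bud 2 and the other WT buds. The log2 fold change was -0.11 (95% interval -0.33 to 0.11, adjusted p = 0.743, exact permutation p = 0.304). With 1 library left out it ran from -0.17 to -0.07. The largest decrease came without WT bud 2, the only WT bud below the mutants. All mutants were then below all WT buds (exact permutation p = 0.0286, the smallest the remaining buds can give, adjusted p = 0.456 by limma). Of the 17 other settings, 1 gave Sufu an unadjusted p under 0.05 by limma.

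Gli1, a transcriptional activator whose own transcription depends on the signal (chr10:127321964-127341579, a locus that it shares in the table with Arhgap9), measured 8.68, 9.46, 12.9, 12.1 and 15.8 FPKM in WT buds and 8.84, 8.80 and 6.32 FPKM in mutants. Mutant bud 3 was the lowest of all, but mutant buds 1 and 2 lay between WT buds 1 and 2, so the genotypes overlapped. The log2 fold change was -0.50 (SE 0.19), with an unadjusted p of 0.0277 and an adjusted p of 0.378 by limma and an exact permutation p of 0.0714. Without mutant bud 3 it was -0.35, with an unadjusted p of 0.119.

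Gli2, the main activator downstream of Smo (chr1:118834061-119053619, minus strand, a locus shared in the table with Mir6346), measured 15.4, 14.3, 17.3, 15.9 and 15.2 FPKM in WT buds and 12.9, 13.7 and 7.0 FPKM in mutants. The WT buds lay close together and all 3 mutants lay below them, mutant bud 3 far below. The log2 fold change was -0.49 (SE 0.18, unadjusted p = 0.0238, adjusted p = 0.360 by limma), and the exact permutation p was 0.0179, the smallest that 5 against 3 buds can give. Without mutant bud 3 the difference was -0.21, with an unadjusted p of 0.0427.

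Gli3, the main repressor of the pathway when ligand is absent (chr13:15463723-15730025), measured 28.0, 28.1, 29.3, 25.0 and 28.1 FPKM in WT buds and 22.3, 22.9 and 18.0 FPKM in mutants. No mutant bud reached the lowest WT bud. Gli3 had the smallest p of the 6 genes tested by limma, with a log2 fold change of -0.38 (SE 0.09, 95% interval -0.59 to -0.18), an unadjusted p of 0.00201, an adjusted p of 0.195 by limma and an exact permutation p of 0.0179. Across 17 other settings its adjusted p ranged from 0.0526 to 0.715 and its fold change stayed negative. Without mutant bud 3 the difference was -0.28 (unadjusted p = 0.00664).

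**Figure D1:**
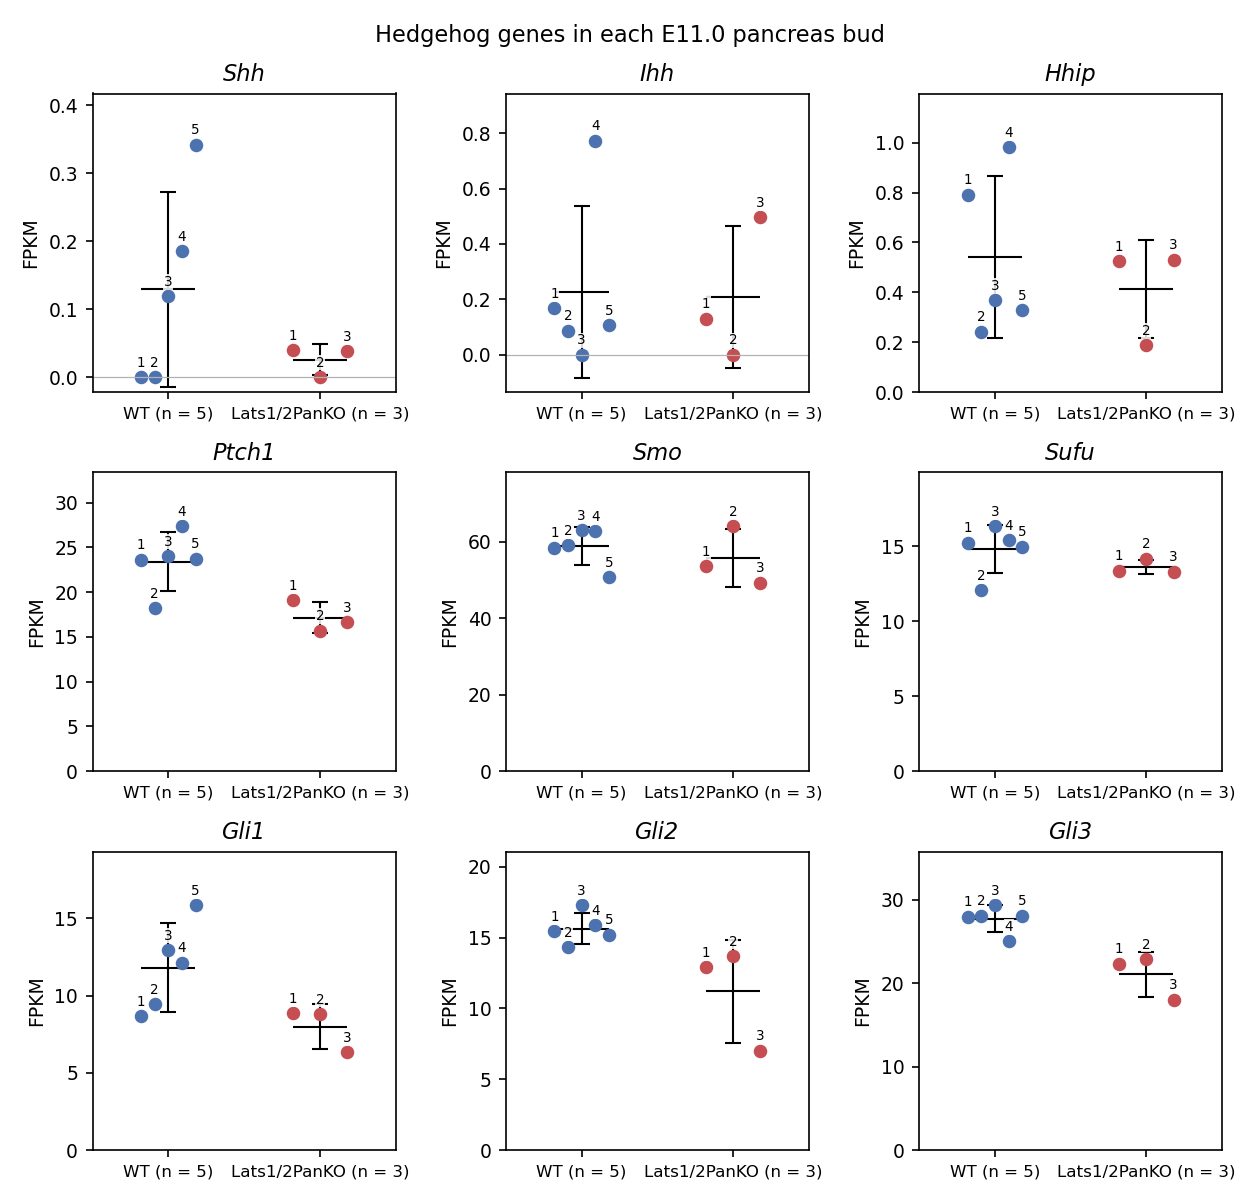
FPKM of each Hedgehog gene in each bud, with the replicate number beside each point, the mean as a horizontal bar and the SD as whiskers. Axes start at or below 0 and differ in scale between genes. Shh, Ihh and Hhip stay under 1 FPKM, Gli2 and Gli3 are lower in all 3 Lats1/2PanKO buds than in any WT bud, and the other panels overlap.

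Counted together, 0 of the 6 tested genes passed an adjusted p of 0.05, against 0.0145% of all genes tested (2 genes), by limma. At an unadjusted p under 0.05, 4 of the 6 (66.7%) were lower in Lats1/2PanKO buds, namely Ptch1, Gli1, Gli2 and Gli3, against 4.99% of all genes, and none was higher, against 6.29% of all genes. Gli2 and Gli3 were the 2 whose mutant values all lay below all WT values, which held for 3.06% of all genes, and none lay above, which held for 4.46%. All 6 fold changes were negative, as were 53.1% of those of all genes, and their median was -0.40 against -0.01 over all genes. That median was -0.25 without mutant bud 3, and -0.13 over all 9 genes with no filter on low values. These 6 genes are measured in the same buds and are not independent of each other. Each library holds the RNA of a bud after its mesenchyme was pulled away. Fewer responding cells, in the bud or left after the dissection, and less RNA per responding cell therefore cannot be told apart.

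The levels gave the order Smo, Gli3, Ptch1, Sufu, Gli2, Gli1, Hhip, Ihh and Shh by mean FPKM. Smo exceeded Gli3 and Gli1 exceeded Hhip in all 8 buds with no overlap of their ranges. Ptch1 was above Sufu within every bud, and Hhip above Ihh, although the ranges over buds overlapped. Gli3 was above Ptch1, and Gli2 above Gli1, in 7 of 8 buds each. Smo stood at the 89.8th percentile of the genes tested, Gli3 at the 75th, Ptch1 at the 70.5th, Sufu at the 59.9th, Gli2 at the 59.0th and Gli1 at the 50.7th.

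Sufu and Gli2 had near-equal levels, and their order differed between genotypes. The ratio of Gli2 to Sufu was 1.01, 1.18, 1.06, 1.03 and 1.01 in WT buds and 0.965, 0.965 and 0.526 in mutants, so Gli2 was the higher in 5 of 5 WT buds and Sufu in 3 of 3 mutants. This ratio was picked after its values had been seen, so it is a description. Within the Gli family the proportions did not separate the genotypes. The ratio of Gli1 to Gli3 was 0.428 ± 0.105 in WT (SD, n = 5) and 0.377 ± 0.0231 in mutants (SD, n = 3, exact permutation p = 0.536), and that of Gli2 to Gli3 was 0.565 ± 0.0482 and 0.522 ± 0.115 (exact permutation p = 0.5). The ratio of Ptch1 to Smo was 0.399 ± 0.0607 in WT and 0.313 ± 0.0591 in mutants (exact permutation p = 0.107), and that of Gli1 to Ptch1 was 0.507 ± 0.112 and 0.467 ± 0.0903 (exact permutation p = 0.696).

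Among the 6 tested genes, WT buds themselves differed most in Gli1. The coefficient of variation over WT buds was 24.3% for Gli1 and 14.0% for Ptch1, compared with 5.81% for Gli3, 6.95% for Gli2, 8.46% for Smo and 10.9% for Sufu. Among the 8480 genes with a mean of 5 to 100 FPKM the median was 10.4%. Of these genes 92.4% varied less than Gli1 did, 70.5% less than Ptch1, 53.8% less than Sufu and 14.7% less than Gli3. The WT range of Gli1, from 8.68 FPKM in bud 1 to 15.8 FPKM in bud 5, was 1.83-fold, while the ratio of the mutant to the WT mean was 0.676.

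**Figure D2:**
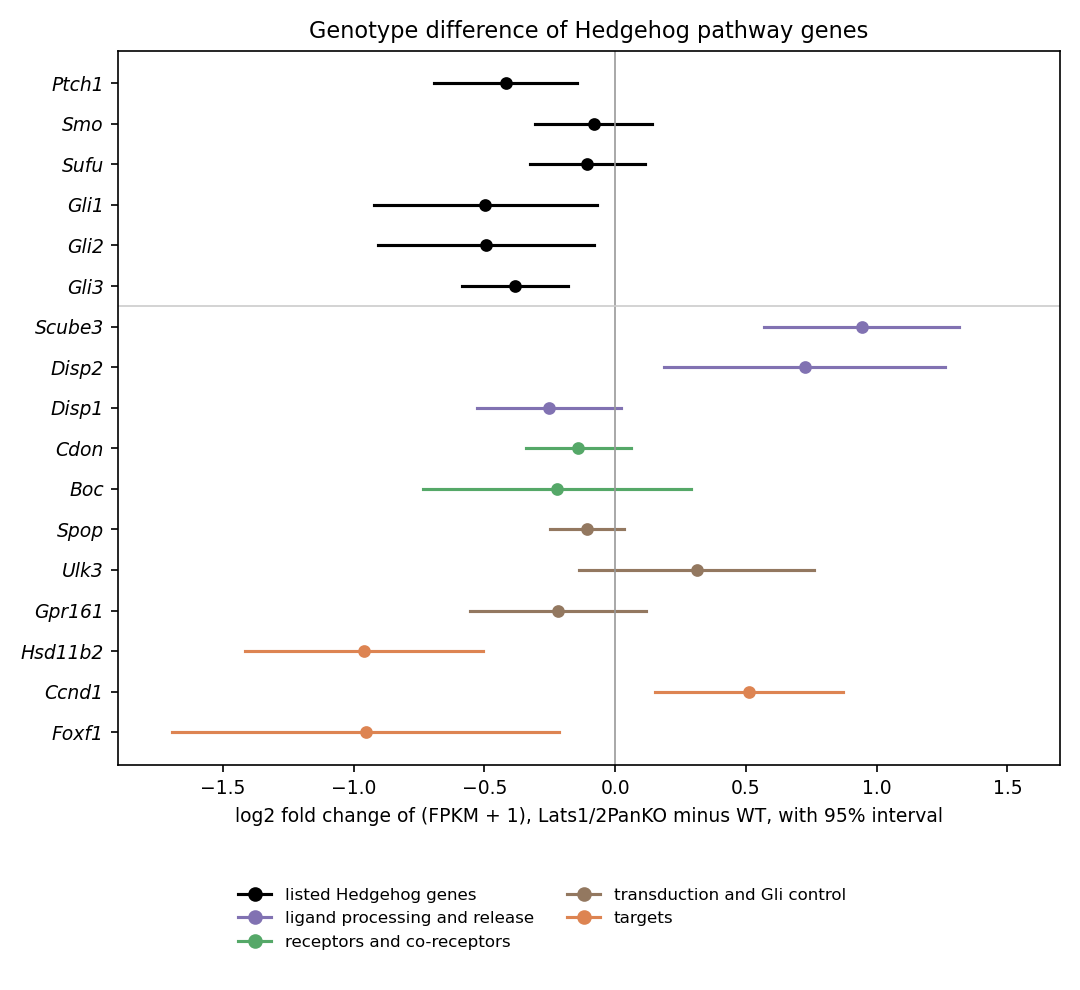
Log2 fold change of (FPKM + 1), Lats1/2PanKO minus WT, as a point with its 95% limma interval, for the 6 tested Hedgehog genes (above the line) and 11 other pathway genes described in the text (below it, colored by role). The intervals of Ptch1, Gli1, Gli2 and Gli3 lie below 0, those of Smo and Sufu include it, and Scube3 and Hsd11b2 lie farthest from 0 on opposite sides. Intervals are not adjusted for the number of genes.

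The sequences before the start sites of Ptch1, Gli2 and Gli3 are shown to compare the genes that were lower with Smo, whose interval included 0. The interval of Sufu also included 0, and its sequence is not printed. RefSeq (GRCm38.p6) gave a window of 250 bases before and 50 after the start for 7 of the 9 genes, all but Shh and Gli1. Windows were searched on both strands for the Gli site GACCACCCA, for the same site with any middle base (GACCNCCCA), for the TEAD site CATTCC, which the YAP1 and TAZ partners bind, and for the GC box GGGCGG. The 250 bases before the start follow in the direction of transcription, with capitals marking a GC box, in Smo a TEAD site:
Ptch1, chr13:63565736-63565985, minus strand: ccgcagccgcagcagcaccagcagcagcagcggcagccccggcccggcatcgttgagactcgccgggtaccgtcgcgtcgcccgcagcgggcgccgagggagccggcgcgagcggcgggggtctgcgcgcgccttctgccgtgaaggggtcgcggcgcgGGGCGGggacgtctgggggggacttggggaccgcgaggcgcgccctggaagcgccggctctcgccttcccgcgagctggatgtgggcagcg
Gli2, chr1:119053620-119053869, minus strand: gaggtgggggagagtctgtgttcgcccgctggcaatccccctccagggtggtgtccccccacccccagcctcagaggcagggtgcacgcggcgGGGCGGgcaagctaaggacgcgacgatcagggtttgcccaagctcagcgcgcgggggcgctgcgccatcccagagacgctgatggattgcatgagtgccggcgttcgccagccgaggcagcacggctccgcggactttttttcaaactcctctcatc
Gli3, chr13:15463473-15463722, plus strand: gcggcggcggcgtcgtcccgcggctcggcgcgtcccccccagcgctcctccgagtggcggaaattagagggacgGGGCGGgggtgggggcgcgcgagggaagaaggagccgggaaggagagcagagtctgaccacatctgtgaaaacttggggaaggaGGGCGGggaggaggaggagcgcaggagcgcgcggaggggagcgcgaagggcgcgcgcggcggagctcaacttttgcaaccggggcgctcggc
Smo, chr6:29735247-29735496, plus strand: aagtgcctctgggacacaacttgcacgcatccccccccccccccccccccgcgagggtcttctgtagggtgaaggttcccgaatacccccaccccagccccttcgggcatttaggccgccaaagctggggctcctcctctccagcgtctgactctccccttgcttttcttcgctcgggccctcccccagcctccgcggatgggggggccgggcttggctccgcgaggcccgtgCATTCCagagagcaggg
No searched motif overlapped another in these windows. Neither form of the Gli site was found in any of the 7 windows, and they occur in 0.253% and 0.977% of 32851 RefSeq windows of the same length. The TEAD site was found in Smo alone, with its first base 17 bases before the start, against 14.7% of all windows. GC boxes were found in 6 of 7 windows, Smo being the exception, against 35.7% of all windows. The Sufu window held 1 GC box and no TEAD site, so neither motif set apart the genes that were lower. The GC content of the 250 bases was 78.4% for Ptch1, 67.2% for Gli2, 72.8% for Gli3 and 68.4% for Smo, compared with a median of 52.4% over all windows. The Ptch1 and Gli3 windows lie in introns of longer GENCODE transcripts of the same genes, and that of Gli3 also overlaps the exon of Gm6556 on the opposite strand. These matches describe the letters of the windows only.

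A further 48 genes of the pathway were taken from a list arranged by role, of which 44 were tested. By limma 0 of them passed an adjusted p of 0.05. At an unadjusted p under 0.05, 2 were lower (4.55%) and 3 higher (6.82%), shares near those of all genes. Their median log2 fold change was -0.10, and 32 of the 44 were negative. Of all genes tested 53.1% were negative, the background for this count and for the counts by role that follow.

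Among 7 genes of ligand processing and release, 5 were tested. Scube3, of a family of secreted proteins that help release Hedgehog ligand, measured 16.2, 13.4, 18.5, 14.9 and 18.0 FPKM in WT buds and 26.8, 27.7 and 43.3 FPKM in mutants, so that all mutants were above all WT buds. Its log2 fold change was 0.94 (SE 0.16, unadjusted p = 0.000274, adjusted p = 0.109 by limma, exact permutation p = 0.0179), the smallest p of all pathway genes examined. Disp2, related to the ligand exporter Disp1, was at 1.77 to 2.91 FPKM in WT and 2.80 to 7.45 FPKM in mutants (log2 fold change 0.72, unadjusted p = 0.0136, adjusted p = 0.317). Without mutant bud 3 that difference was 0.43 (unadjusted p = 0.0551). Disp1 itself was at 9.15 to 13.0 and 7.80 to 9.28 FPKM (log2 fold change -0.25, adjusted p = 0.502). Dhh, the third mammalian ligand, was at 0.0421 to 0.315 FPKM over all buds.

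All 6 receptors and co-receptors had negative fold changes, with a median of -0.17, and none reached an unadjusted p under 0.05. The co-receptor Cdon was nearly even in WT, from 8.30 to 9.24 FPKM, and lay lower in all mutants, from 6.82 to 8.15 FPKM, although the log2 fold change was small (-0.14, SE 0.09, adjusted p = 0.604, exact permutation p = 0.0179), and -0.07 without mutant bud 3. Boc, a co-receptor related to Cdon, was at 4.89 to 8.31 and 3.22 to 6.56 FPKM (log2 fold change -0.22, adjusted p = 0.767), and without mutant bud 3 its difference was 0.06.

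The 21 genes of signal transduction and Gli control, among them ciliary proteins, protein kinase A subunits and ubiquitin ligase parts, were all tested, and 8 were higher and 13 lower, none at an unadjusted p under 0.05. Their fold changes ran from -0.22 for Gpr161, a ciliary receptor that restrains the pathway, to 0.31 for Ulk3, a kinase acting on Gli proteins. Leaving out 1 library moved Gpr161 to -0.42 (without mutant bud 2) or -0.08 (without mutant bud 3) and Ulk3 to 0.21 (without WT bud 3) or 0.19 (without mutant bud 3). Spop, which targets Gli2 and Gli3 for degradation, had the smallest p, with 27.3 to 29.9 FPKM in WT and 25.4 to 28.5 FPKM in mutants (log2 fold change -0.11, adjusted p = 0.569).

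Of 14 targets known from gut and other mesenchyme, 12 were tested, and 11 of these were lower, against 53.1% of all genes tested. Their median log2 fold change was -0.26. Hsd11b2, a steroid dehydrogenase, measured 35.3, 25.9, 31.0, 40.8 and 40.0 FPKM in WT buds and 18.9, 21.9 and 11.9 FPKM in mutants. All mutants were below all WT buds and the log2 fold change was -0.96 (SE 0.20, unadjusted p = 0.000995, adjusted p = 0.150 by limma, exact permutation p = 0.0179). Foxf1, a transcription factor of gut mesenchyme, measured 33.8, 25.4, 61.4, 45.8 and 71.6 FPKM in WT buds and 28.3, 25.3 and 15.8 FPKM in mutants. WT bud 2 fell among the mutant values, and the log2 fold change was -0.95 (SE 0.33, unadjusted p = 0.0172, adjusted p = 0.330, exact permutation p = 0.0714). Without mutant bud 3 it was -0.71 (unadjusted p = 0.0791). Ccnd1, a cyclin that many other pathways also induce and that the authors list among known TEAD targets, went the other way. It was at 41.6 to 56.7 FPKM in WT and 63.0 to 101 FPKM in mutants (log2 fold change 0.51, unadjusted p = 0.0104, adjusted p = 0.300 by limma). Without mutant bud 3 its difference was 0.31.

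Foxf1 followed Gli1 from bud to bud. Over the 8 buds Pearson's r of log2(FPKM + 1) was 0.964 (Spearman's rho 0.833), the 7th highest of 11461 genes whose mean reached 2 FPKM, and within the 5 WT buds r was 0.918. Hsd11b2 ranked 423rd (r = 0.825, rho = 0.643, within WT r = 0.508). The pattern of Foxf1 was not particular to Hedgehog targets. Pdgfra, a mesenchyme marker, measured 44.8, 35.5, 59.2, 52.4 and 87.8 FPKM in WT buds 1 to 5. Barx1, of stomach mesenchyme, was also lower in WT buds 1 and 2 (234 and 173 FPKM) than in the others (500.1, 359 and 406 FPKM). Col1a1 was not (58.8 and 60.1 against 37.2, 39.6 and 46.0 FPKM). The genes most like Gli1 were Cox7a2 (r = 0.980), Terf1 (r = 0.974) and Kat5 (r = 0.972), and those most like Shh were Ikzf5 (r = 0.975), Cdca8 (r = 0.971) and Rpl24 (r = 0.962), the latter resting on 5 buds with any Shh. These coefficients are descriptions picked as the highest among 11461 genes over 8 points that share their library and depth, and they carry no test.

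**Figure D3:**
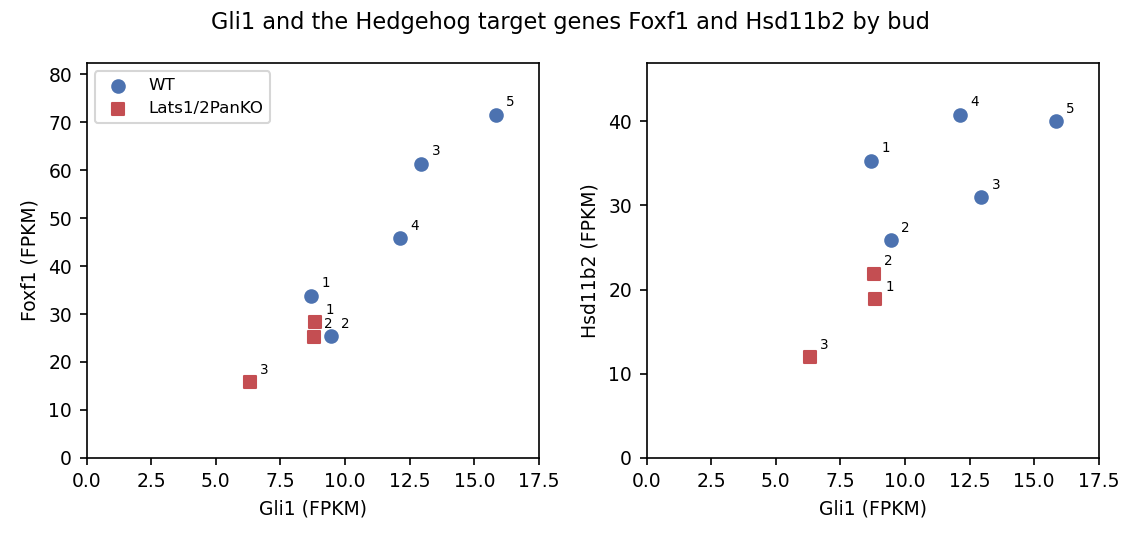
FPKM of Foxf1 (left) and Hsd11b2 (right) against FPKM of Gli1, 1 point a bud with its replicate number, circles for WT and squares for Lats1/2PanKO. Foxf1 increases with Gli1 both among WT buds (Foxf1 from 25.4 to 71.6 FPKM) and across genotypes, and mutant bud 3 is lowest in all 3 genes.

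Marker RNA of several cell types differed between genotypes beside these results, and the shares of cells were not measured. Summed FPKM of 14 epithelium markers, among them Cdh1 and Epcam, was 234 to 302 in WT and 466 to 1129 in Lats1/2PanKO buds, with mutant bud 3 the highest. All 14 were higher, where 6461 of all 13777 genes tested were higher. Of 12 pancreatic progenitor markers, 11 were tested and 10 of these were higher (median log2 fold change 0.60), and their sums were 116 to 169 and 179 to 458 FPKM. Pdx1 was at 9.96 to 21.8 FPKM in WT and 15.3 to 48.5 FPKM in mutants, so all 8 buds carried the labelled tissue. Mesenchyme RNA was present in all of them despite the dissection. Col1a1 was at 37.2 to 60.1 FPKM in WT and 23.1 to 46.5 FPKM in mutants, Pdgfra at 35.5 to 87.8 and 19.9 to 35.0 FPKM, and Barx1, a factor of stomach mesenchyme, at 173 to 500.1 and 115 to 302 FPKM.

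Of the 20 mesenchyme markers none was at 0 in any bud, and 19 were tested. Of these 15 were lower, where 53.1% of all genes tested were lower. At an unadjusted p under 0.05 by limma, 5 were lower and 1 higher, against 4.99% and 6.29% of all genes. The median log2 fold change of the markers was -0.35 beside -0.40 for the 6 Hedgehog genes. Without mutant bud 3 these medians were -0.16 and -0.25. Their summed FPKM overlapped, at 800.1 to 1089 in WT and 931 to 980.0 in mutants, but Vim (361 to 481 and 464 to 602 FPKM) and Fn1 (86.3 to 151 and 87.0 to 174 FPKM), 2 of the 4 markers that were higher, make up more of that sum than the rest. Vim is also made by epithelial cells that take on mesenchymal features. Without them, a choice made after the values were seen, the sums were 347 to 518 FPKM in WT and 327, 409 and 204 FPKM in mutant buds 1, 2 and 3. All 8 regulators of gut and pancreas mesenchyme were lower (median -0.32, sums 445 to 749 and 270 to 548 FPKM), as were all 10 endothelial markers (median -0.43, sums 129 to 203 and 89.7 to 142 FPKM). Liver (median 0.50), red blood cell (0.51), nerve and neural crest (0.31) and leukocyte markers (0.12) had positive medians. Mutant bud 3, with the lowest Gli1, Gli2 and Gli3, also had the lowest mesenchyme mean on the log2 scale, the lowest mesenchyme sum without Vim and Fn1 and the highest epithelium sum.

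Stomach and duodenum epithelium was sparse. Its 10 markers summed to 5.25 to 6.80 FPKM in WT and 7.30 to 12.4 FPKM in mutants, 3 were tested, and Tff2 and Gkn1 were listed at 0 in all buds. Sox2 was at 0.107 to 0.810 FPKM in WT and 0.433 to 1.73 FPKM in mutants, and Cdx2 at 0 to 0.468 and 0.0935 to 0.428 FPKM. These tissues make Hedgehog ligand in the embryo, and their part in the ligand values was not tested.

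**Figure D4:**
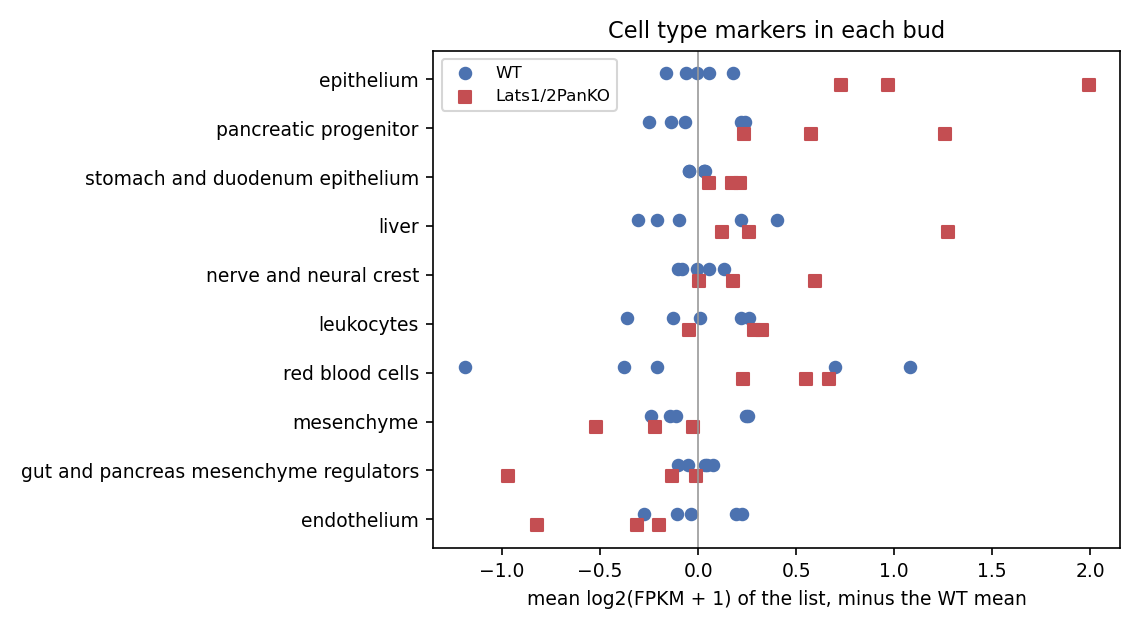
Mean log2(FPKM + 1) of each marker list in each bud, minus the WT mean of that list, circles for WT and squares for Lats1/2PanKO. Epithelium markers are higher in all 3 mutants than in any WT bud, as are the sparse stomach and duodenum markers, while mesenchyme, mesenchyme regulator and endothelium markers of mutants reach below the WT range but overlap it.

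The 6 tested Hedgehog genes were set against the mesenchyme markers in 2 ways, of which the subtraction was added after the data were seen. Both used the mean of all 20 markers, with the 4 that were higher in mutants (Vim, Fn1, Prrx1 and Thy1) among them, so that mean may itself differ with genotype. Subtracting the mean log2(FPKM + 1) of the 20 mesenchyme markers within each bud left differences of -0.16 for Ptch1 (exact permutation p = 0.571), -0.24 for Gli1 (p = 0.464, exact), -0.24 for Gli2 (p = 0.321, exact) and -0.13 for Gli3 (p = 0.375, exact), and turned Smo to 0.17 (p = 0.357, exact) and Sufu to 0.15 (p = 0.554, exact). The genotypes overlapped for each of the 6. The target genes Hsd11b2 (-0.70, exact permutation p = 0.0893) and Foxf1 (-0.70, exact permutation p = 0.232) kept larger differences. With the same mean as a covariate in limma, the log2 fold change was -0.52 for Ptch1 (adjusted p = 0.571), -0.60 for Gli1 (adjusted p = 0.772), -0.37 for Gli2 (adjusted p = 0.812) and -0.31 for Gli3 (adjusted p = 0.715), with -0.02 for Smo (adjusted p = 0.977) and -0.17 for Sufu (adjusted p = 0.836). The unadjusted p of that fit was 0.00400 for Ptch1, 0.0264 for Gli1, 0.113 for Gli2 and 0.0136 for Gli3. WT buds 1 and 2 had the highest mesenchyme means but not the highest Ptch1 or Gli1. The 2 calculations gave different sizes, such as -0.16 and -0.52 for Ptch1, and opposite signs for Smo and Sufu. How far the amount of mesenchyme accounts for the lower values was not tested.

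**Figure D5:**
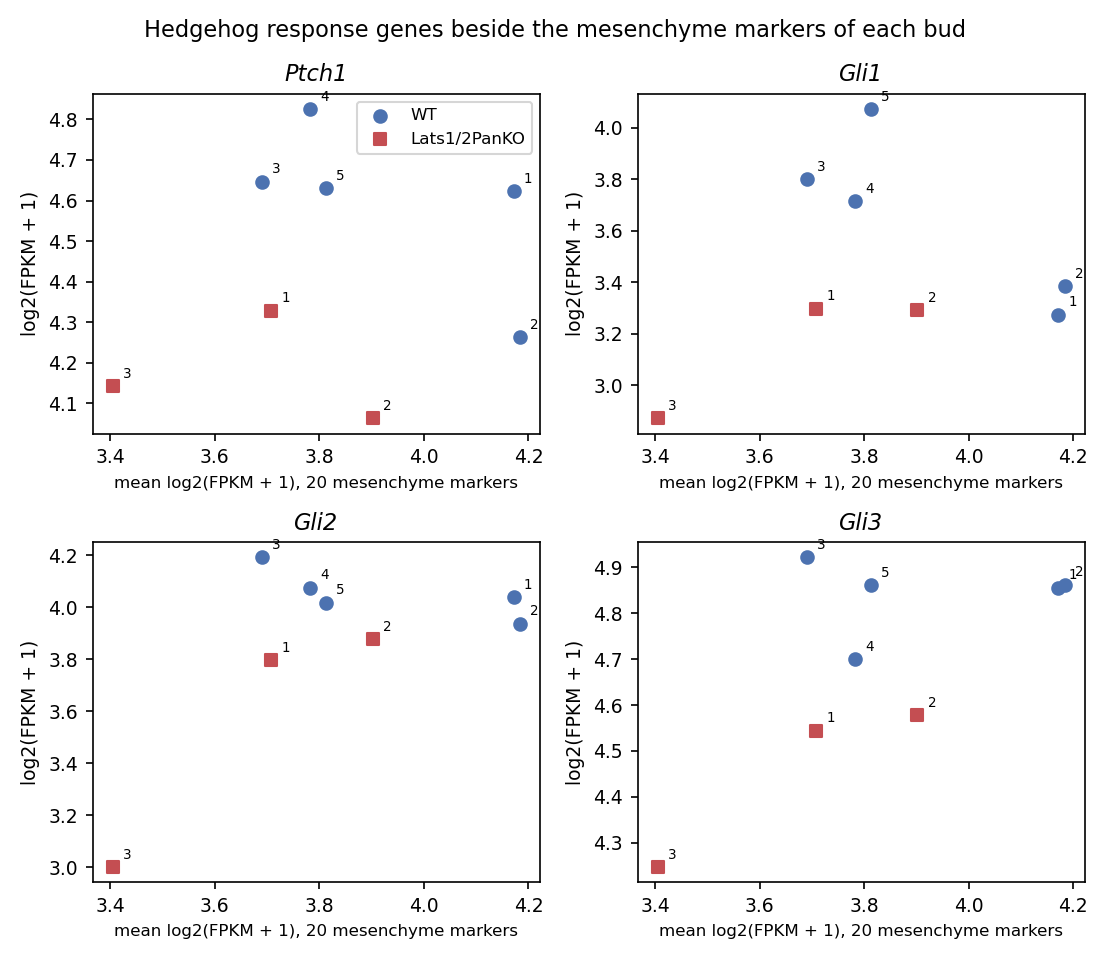
Log2(FPKM + 1) of Ptch1, Gli1, Gli2 and Gli3 against the mean log2(FPKM + 1) of the 20 mesenchyme markers, 1 point a bud with its replicate number, circles for WT and squares for Lats1/2PanKO. Axes do not start at 0. Mutant bud 3 has the lowest mesenchyme mean and the lowest Gli1, Gli2 and Gli3. In all 4 panels mutant buds 1 and 2 (mesenchyme means 3.71 and 3.90) lie below WT buds 3, 4 and 5 (3.69, 3.78 and 3.81). WT buds 1 and 2 (4.17 and 4.18) lie on either side of them in Gli1.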

How the data were processed

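Total RNA from single E11.0 pancreas buds was sequenced from both ends in stranded libraries after removal of ribosomal RNA. The authors aligned reads to GRCm38 with TopHat2 2.1.0 and deposited FPKM per gene from the Cufflinks suite 2.2.1, after cutadapt 1.12 per the submitters' processing notes. Quantile normalization is named in the methods, but the 8 deposited columns differ in distribution (upper quartiles of genes above 0 from 19.8 to 21.5 FPKM), and they were used as deposited, with 1 FPKM added before log2. The 13777 genes whose mean reached 0.5 FPKM were fitted with limma 3.58.1 in R 4.3.3 with a mean-variance trend, Benjamini-Hochberg adjustment over all of them used a threshold of 0.05, and the code was tested on simulated data. Permutation tests were exact and two-sided over 56 assignments. Groups and replicate numbers came from the labels. Buds are taken as separate embryos of each genotype.

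The 9 genes, the other pathway genes and the marker lists were chosen with earlier results of these data known. Genes named are all 9, in each role list the 3 tested genes with the smallest unadjusted p, and the 3 genes most correlated with Shh and with Gli1 among those whose mean reached 2 FPKM. Dhh, Tff2, Gkn1 and the place of Hsd11b2 and Foxf1 in the Gli1 ranking were added after values were seen. Fragments were estimated from 393 genes with 1 exon and GENCODE M21 transcript lengths, so no counting interval is given. Coordinates of genes are those of the table, counted from 1. Figures used matplotlib 3.10.9 in Python 3.11.15.

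Alternatives were quantile normalization, a pseudocount of 0.1 FPKM, median-ratio scaling, no filter on low genes, a minimum of 2 FPKM, array weights, no trend, the replicate number as a block, the mesenchyme mean as a covariate and each library left out. Subtracting that mean within each bud, and a mesenchyme sum without Vim and Fn1, were added after the data were seen. A comparison of protein sequences was not run here. A gene that the naming rule selects is not reported here.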

Additional observations from a re-analysis of the deposited data

Results flagged for a closer look

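Within WT, 3 of 21 genes examined had 1 bud far from the other 4, as measured by the gap to the nearest bud divided by the whole range, for which chance passes Dixon's limit in about 1 of 20 groups. Ihh was high in WT bud 4 (0.773 FPKM against at most 0.167 FPKM in the others, ratio 0.783). Cdon was high in WT bud 1 (9.24 FPKM against at most 8.42 FPKM, ratio 0.871). Ccnd1 was low in WT bud 5 (41.6 FPKM against at least 54.4 FPKM, ratio 0.847). WT bud 5 was also the library in which 1 fragment was worth most, and no cause was tested.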

How the results depend on the processing

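Across the 17 other settings tried the limma fold changes of Ptch1, Smo, Gli1, Gli2, Gli3 and Sufu kept their negative sign and none reached an adjusted p of 0.05. Subtraction of the mesenchyme mean, added after the data were seen, turned Smo (0.17) and Sufu (0.15). Array weights gave -0.28 for Gli1, -0.31 for Gli2 and -0.56 for Foxf1. The number of all genes called, 2 as reported, was 18 with a pseudocount of 0.1 FPKM, 174 with array weights, 1 without the mean-variance trend and 0 with the mesenchyme covariate. Leaving out 1 library gave 0 to 69 genes, 0 without WT bud 1, 2, 3 or 5, 4 without WT bud 4, and 1, 69 and 19 without mutant buds 1, 2 and 3. Over all genes tested, deviations from the genotype mean correlated at r = 0.0855, -0.0969 and 0.0685 between same-numbered buds. Differently numbered buds ran from -0.110 to 0.135. Such small values cannot show whether the numbers pair the buds. With the replicate block, 1 gene was called, 2 Hedgehog genes in place of 4 and 8 other pathway genes in place of 5 had an unadjusted p under 0.05. Array weights gave 9 other pathway genes, and brought Scube3 (adjusted p = 0.0244) and Hsd11b2 (adjusted p = 0.0409) past 0.05. Leaving out 1 library gave 3 to 5 Hedgehog genes and 5 to 7 others. Signs turned for Boc with the mesenchyme covariate (0.13), and when 1 library was left out for Boc (-0.37 to 0.055, positive without mutant bud 3), Ihh (-0.17 to 0.13, positive without WT bud 4 or mutant buds 1 or 2) and Hhip (-0.18 to 0.011, positive without mutant bud 2). The cause was not tested. Depth limits Shh and Ihh, which rest on a few fragments.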
